A study of Mus musculus with 17 samples.

Results

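The nuclear genes of the mitochondrial respiratory chain and the ATP synthase were taken as every symbol in the deposited tables that begins with Ndufa, Ndufb, Ndufc, Ndufs or Ndufv (without the Ndufaf assembly factors), Uqcr, Cox4 to Cox8 or Atp5, together with Sdha, Sdhb, Sdhc and Sdhd. The rule uses names alone and found 85 of the 24015 genes. They comprised 36 genes of complex I, 4 of complex II, 8 of complex III, 19 of complex IV (Ndufa4 and its relative Ndufa4l2 among them), 15 of the ATP synthase, and 3 that the prefix brings in but that are not subunits (Atp5s, Atp5sl and Cox7a2l). Of the 85, 83 had at least 1 count. Ndufs5 and Cox8c were at 0 in every library, where 3 counts would correspond to 0.0653 to 0.149 CPM (read counts scaled to a fixed total per library) before TMM scaling between libraries. No mitochondrially encoded gene was among the genes listed, so the subunits made inside the mitochondrion were not analysed here.

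The 17 libraries came from CD-1 mouse cells. Induced XEN (iXEN) cells, extraembryonic endoderm stem cell lines induced by the factors called OSKM (Oct4, Sox2, Klf4 and Myc), are represented by 4 libraries in XEN medium and 4 in ESC medium, numbered 1, 2, 6 and 9 in their labels. XEN cells, stem cells from extraembryonic endoderm itself, gave 3 libraries in XEN medium and 3 in ESC medium, numbered 1, 2 and 7. Both cell types had 10 passages in ESC medium and then 5 passages in the medium named. Mouse embryonic fibroblasts (MEF), labelled as the control, gave 3 libraries after 3 passages in MEF medium, so cell type, medium and number of passages cannot be told apart in any comparison with MEF. Gene counts came to 20071567 to 45914262 per library. Values per library are given below in the order of the library numbers.

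Marker genes were checked against the labels. The summed CPM of 10 fibroblast markers was 4.41, 2348, 10.8 and 1032 CPM in iXEN libraries 1, 2, 6 and 9 in XEN medium, 21.5 to 27.2 CPM in iXEN cells in ESC medium, 3.19 to 9.45 CPM in XEN cells in XEN medium, and 7742, 324 and 5.90 CPM in XEN libraries 1, 2 and 7 in ESC medium, against 35930 to 50150 CPM in MEF. Fibroblast transcripts were thus present in iXEN libraries 2 and 9 in XEN medium and in XEN libraries 1 and 2 in ESC medium. Values without any 1 of them are given with the comparisons they enter, singly or as a range. The 2 iXEN libraries were also left out together, except in the interaction, and the 2 XEN libraries were not. The sum of 10 extraembryonic endoderm markers was 27000 to 51250 CPM, 73150 to 107300 CPM, 18960 to 60210 CPM and 12250 to 130100 CPM in iXEN cells in XEN medium, iXEN cells in ESC medium, XEN cells in XEN medium and XEN cells in ESC medium, against 7110 to 7744 CPM in MEF. XEN library 7 was the lowest XEN library in both media, with 18960 CPM in XEN medium and 12250 CPM in ESC medium. The latter was the lowest of all XEN and iXEN libraries. The 8 macrophage markers summed to 3.91 to 28.0 CPM in the XEN and iXEN libraries, against 76.6 to 254 CPM in MEF. The part of any of these markers in the results was not tested.

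The respiratory chain sits in the inner mitochondrial membrane. Complex I takes electrons from NADH and complex II from succinate, ubiquinone carries them to complex III, cytochrome c carries them to complex IV, and complex IV passes them to oxygen. Complexes I, III and IV pump protons as they do so, and the ATP synthase lets the protons flow back to make ATP. Nuclear transcription factors such as NRF-1 (gene Nrf1), GABP and YY1 are known to bind promoters of many of the nuclear subunit genes.

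Promoter sequence is shown for 3 members that were called higher than in MEF in at least 3 of the 4 comparisons below and for Sdha, which was called in none, because all 4 carry the NRF-1 motif upstream of the start site. The choice was made with the values known. The windows are from RefSeq on GRCm38.p6, a later build than the mm9 of the deposited counts, and run 5′ to 3′ on the gene's strand. They lie within 250 bases before the start site. Capitals mark the letters GCGCA, any base and GCGC, on the printed strand or as the reverse complement.
Atp5h, chr11:115419991-115420120, minus strand: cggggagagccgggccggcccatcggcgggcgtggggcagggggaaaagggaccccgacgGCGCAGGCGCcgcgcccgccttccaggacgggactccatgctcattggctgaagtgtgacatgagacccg
Cox6a1, chr5:115349006-115349180, minus strand: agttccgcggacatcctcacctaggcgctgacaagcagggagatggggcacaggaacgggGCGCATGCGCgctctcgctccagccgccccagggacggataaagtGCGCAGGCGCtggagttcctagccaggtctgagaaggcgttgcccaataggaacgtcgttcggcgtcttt
Ndufa5, chr6:24527647-24527776, minus strand: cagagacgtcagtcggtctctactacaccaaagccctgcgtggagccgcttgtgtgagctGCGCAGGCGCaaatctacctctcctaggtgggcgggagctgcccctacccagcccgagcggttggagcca
Sdha, chr13:74350241-74350398, minus strand: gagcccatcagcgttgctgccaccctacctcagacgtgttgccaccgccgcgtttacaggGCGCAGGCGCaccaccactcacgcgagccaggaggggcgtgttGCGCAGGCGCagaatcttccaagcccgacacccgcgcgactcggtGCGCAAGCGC

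A promoter entry, from 250 bases before to 50 after the start site, was at hand for 70 members and for 17848 genes of the tables. The NRF-1 letters (GCGCA, 1 base of any kind, then GCGC), searched on both strands, were in 17 of the 70 members (24.3%) and in 7.22% of all 17848 genes. By complex they were in 7 of 32 genes of complex I, 2 of 3 of complex II, 1 of 5 of complex III, 1 of 13 of complex IV and 6 of 14 of the ATP synthase. The ETS core CCGGAAG, the letters bound by GABP, was in 16 of 70 members (22.9%) against 12.9% of all genes. The YY1 letters AAGATGGC were in 11 of 70 (15.7%) against 3.60%, and the estrogen-related receptor letters TCAAGGTCA were in 2 of 70 (2.86%) against 0.381%. Matches to CCGGAAG and AAGATGGC can share letters, and a match describes the sequence only. The NRF-1 letters were present both in Sdha, which was not called in any comparison, and in Atp5h, which was called higher in all 4.

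Transcripts of complexes I, III and IV and of the ATP synthase were on average more abundant in each of the 4 XEN and iXEN groups than in MEF, and those of complex II were not. In bulk libraries such levels are shares of all messenger RNA, and fewer cells of a type and less RNA per cell cannot be told apart. Summed over its 36 genes, complex I stood at 3036, 3224, 6468 and 6142 CPM in iXEN cells in XEN medium and at 1962, 2276, 2919 and 2561 CPM in iXEN cells in ESC medium. XEN cells held 3546, 4150 and 3330 CPM in XEN medium and 3659, 2648 and 7257 CPM in ESC medium, against 1763, 2093 and 1830 CPM in MEF. Of these, only iXEN library 1 in ESC medium lay within the MEF range. iXEN libraries 6 and 9 in XEN medium and XEN library 7 in ESC medium formed the top.

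**Figure D1:**
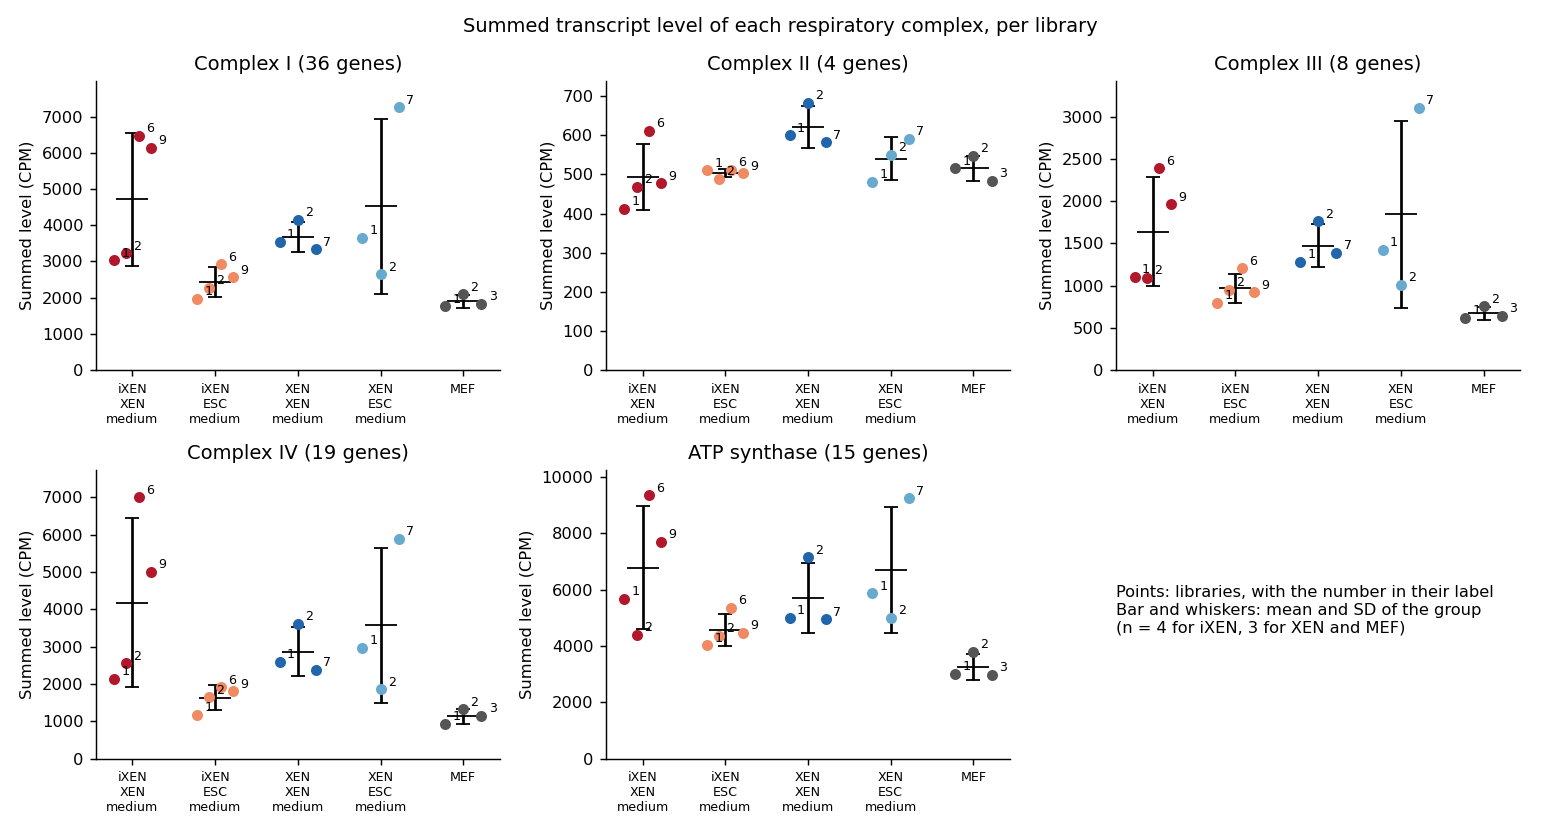
Summed CPM of the nuclear genes of each complex, 1 point per library with its label number, with the mean and SD of each group (n = 4 for iXEN, n = 3 for XEN and MEF); the vertical axes start at 0 and differ between panels. Complexes I, III, IV and the ATP synthase have their lowest group mean in MEF, whereas the 5 group means of complex II lie between 493 and 622 CPM.

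Complex IV averaged 4177 ± 2267 CPM in iXEN cells in XEN medium, 1637 ± 324 CPM in iXEN cells in ESC medium, 2862 ± 657 CPM in XEN cells in XEN medium and 3574 ± 2078 CPM in XEN cells in ESC medium, against 1134 ± 195 CPM in MEF (SD, n = 4, 4, 3, 3 and 3). Complex III followed the same order except that XEN cells in ESC medium came first, with 1636 ± 647, 967 ± 172, 1474 ± 253 and 1845 ± 1108 CPM in these groups against 672 ± 74.4 CPM in MEF. The ATP synthase genes, whose summed level is the highest of the 5, averaged 6779 ± 2190, 4551 ± 568, 5701 ± 1253 and 6703 ± 2236 CPM against 3259 ± 454 CPM in MEF. Complex II averaged 493 ± 84.6, 504 ± 10.7, 622 ± 53.8 and 541 ± 55.4 CPM against 516 ± 32.5 CPM in MEF, where XEN cells in XEN medium (583 to 683 CPM) lay above MEF (483 to 548 CPM) and the other groups overlapped MEF. The SDs of iXEN cells in XEN medium and of XEN cells in ESC medium exceeded the distance between those 2 groups in every complex, so these 2 do not differ beyond their spread. These sums describe the level and were not tested, since the tests were made gene by gene.

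Gene by gene, the members called against MEF were higher in the XEN and iXEN groups, with 2 exceptions that are forms restricted to certain tissues or conditions. A member is said to be called, or to have risen or fallen, where the edgeR quasi-likelihood test with Benjamini-Hochberg adjustment over all genes gave an adjusted p under 0.05. The 4 comparisons share the MEF libraries, so their values are set side by side only. Of 81 members tested in each, iXEN cells in XEN medium had 49 higher and 0 lower, beside 32.6% of the 14438 genes tested that were called in either direction (17.7% higher, 14.9% lower). iXEN cells in ESC medium had 21 higher and 0 lower, beside 46.7% of all genes (20.8% higher, 25.9% lower). XEN cells in XEN medium had 62 higher and 1 lower, beside 47.5% of all genes (23.0% higher, 24.5% lower). XEN cells in ESC medium had 29 higher and 1 lower, beside 25.0% of all genes (11.4% higher, 13.7% lower). The share of members called higher was thus 60.5%, 25.9%, 76.5% and 35.8%, and only the second is near the share of all genes called higher. The median log2 fold change over the members was 1.49, 0.44, 1.05 and 1.39 in this order, beside 0.06, 0.03, 0.02 and -0.03 over all genes tested.

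These counts depended on single libraries, MEF among them. Without MEF library 1, 2 or 3 in turn, iXEN cells in XEN medium had 8, 13 and 9 members called, and they had 22 without their own library 6, 59 without library 2 and 33 without library 9. iXEN cells in ESC medium had 4 without MEF library 1 and 8 without MEF library 3. XEN cells in XEN medium had 36 and 37 without MEF library 1 and 3. XEN cells in ESC medium had 0 without any 1 of the MEF libraries, and 21, 69 and 40 without their own library 1, 2 and 7. Without both iXEN libraries with fibroblast transcripts in XEN medium, 54 members were called higher and 2 lower against MEF. The median log2 fold change over the members stayed above 0 in each omission, at 1.24 to 1.72, 0.36 to 0.55, 0.88 to 1.13 and 0.92 to 1.77 in the 4 comparisons. Calls that survived every omission numbered 8 in iXEN cells in XEN medium (Cox5a, Cox5b, Ndufa12, Ndufab1, Ndufb2, Ndufb4, Ndufb8 and Uqcrfs1), 2 in iXEN cells in ESC medium (Cox7a1 and Ndufb8), 36 in XEN cells in XEN medium and 0 in XEN cells in ESC medium.

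**Figure D2:**
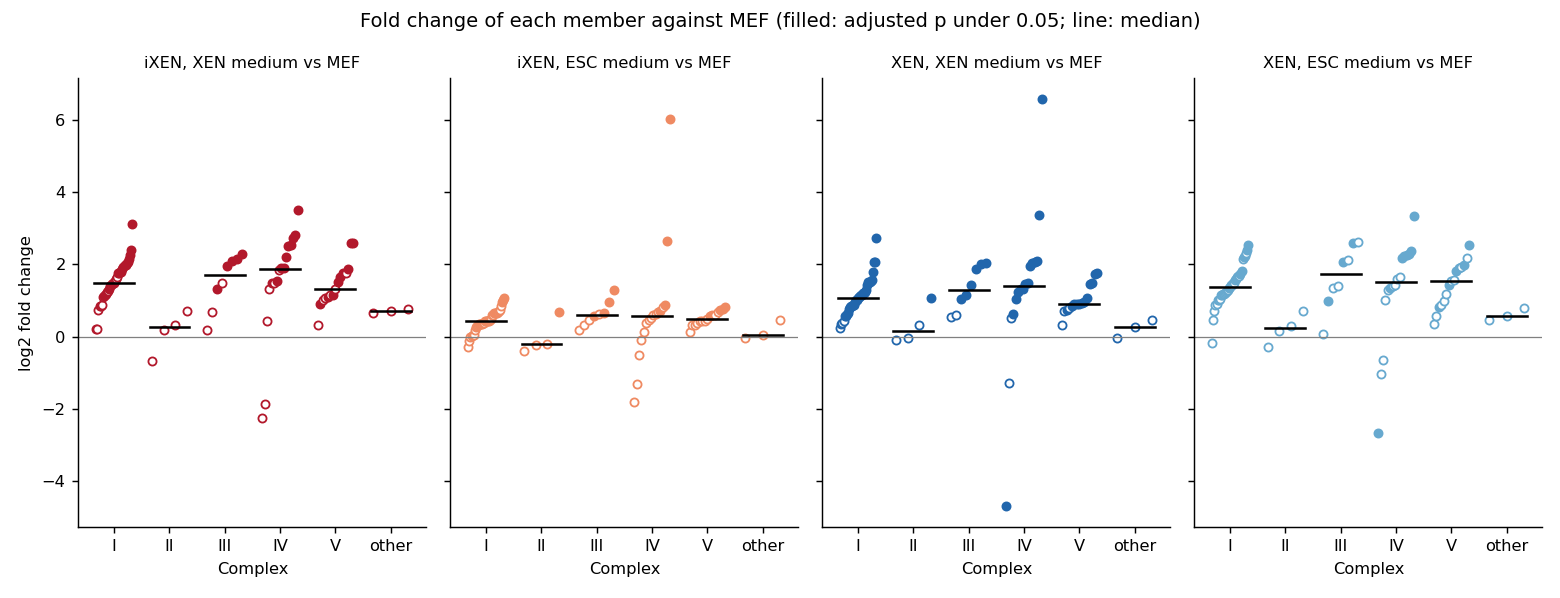
Log2 fold change of each tested member against MEF by complex, 1 panel per comparison, filled points with adjusted p under 0.05, and a line at the median of each complex; the axis is log2. The medians of complexes I, III, IV and V lie above 0 in all 4 panels, and those of complex II between -0.21 and 0.25.

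Of the 85 members, 10 were called higher in all 4 comparisons: Ndufa1, Ndufb7, Ndufb8 and Ndufb10 of complex I, Uqcrfs1 and Uqcrq of complex III, Cox7a1 and Cox7a2 of complex IV, and Atp5e and Atp5h of the ATP synthase. Of these 10, only Cox7a1 and Cox7a2 kept all 4 calls with the length trend described below removed. Another 22 were called higher in 3 comparisons, 23 in 2 and 9 in 1. The 21 called higher in none include Sdha, Sdhb and Sdhc, the complex I core gene Ndufs1, Uqcrc2 and the ATP synthase α subunit gene Atp5a1, besides 6 of the forms restricted to certain tissues and the 3 genes that are not subunits.

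Complex I consists of a catalytic core and of accessory subunits that surround it. Of 28 tested accessory genes, 22 rose in iXEN cells in XEN medium, 7 in iXEN cells in ESC medium, 25 in XEN cells in XEN medium and 11 in XEN cells in ESC medium, with medians of 1.70, 0.44, 1.15 and 1.46. These are 78.6%, 25%, 89.3% and 39.3% of them, beside 17.7%, 20.8%, 23.0% and 11.4% of all genes called higher, so the share in iXEN cells in ESC medium was near that of all genes. Of the 7 nuclear genes of the catalytic core, which hold the flavin and the iron-sulfur clusters, 3, 0, 5 and 2 rose, with medians of 1.10, 0.35, 0.75 and 1.0. The difference between core and accessory genes was not tested.

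Ndufb8, an accessory subunit of the membrane arm and the complex I gene with the most counts, stood at 166, 196, 377 and 263 CPM in iXEN cells in XEN medium and at 121, 111, 190.0 and 129.8 CPM in iXEN cells in ESC medium. XEN cells had 201, 295 and 180.2 CPM in XEN medium and 151, 140.3 and 328 CPM in ESC medium, against 61.6, 78.3 and 62.5 CPM in MEF. Every XEN and iXEN library lay above every MEF library. The log2 fold change against MEF was 1.98 (SE 0.35, adjusted p = 0.00691) in iXEN cells in XEN medium and 1.07 (SE 0.24, adjusted p = 0.00633) in iXEN cells in ESC medium. In XEN cells it was 1.79 (SE 0.25, adjusted p = 0.00281) in XEN medium and 1.69 (SE 0.40, adjusted p = 0.0297) in ESC medium.

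Ndufab1 is the mitochondrial acyl carrier protein, which serves fatty acid synthesis in the matrix and is also built into complex I. It stood at 154, 121, 204 and 105 CPM in iXEN cells in XEN medium and at 11.0, 39.6, 19.5 and 24.5 CPM in iXEN cells in ESC medium. XEN cells had 101, 179 and 60.7 CPM in XEN medium and 63.5, 56.2 and 119 CPM in ESC medium, against 6.81, 21.9 and 24.5 CPM in MEF. MEF library 1 was far below the other 2, and iXEN cells in ESC medium overlapped MEF. It rose by 3.11 (SE 0.50, adjusted p = 0.00519) in iXEN cells in XEN medium, 2.72 (SE 0.62, adjusted p = 0.0136) in XEN cells in XEN medium and 2.23 (SE 0.57, adjusted p = 0.0357) in XEN cells in ESC medium, and its value in iXEN cells in ESC medium was 0.44 (SE 0.52, adjusted p = 0.520). Ndufa1, an accessory subunit encoded on the X chromosome and needed for assembly, rose in all 4 groups by 1.99, 1.0, 2.06 and 2.39 in the order iXEN in XEN medium, iXEN in ESC medium, XEN in XEN medium and XEN in ESC medium. Ndufb2 had 2.40, 0.86, 2.07 and 2.54 in the same order, of which the second was not called (adjusted p = 0.155). Ndufb7 rose by 2.27, 0.96, 1.44 and 2.19 and Ndufb10 by 1.79, 0.65, 1.15 and 1.74.

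Ndufs1, the largest core subunit and a carrier of iron-sulfur clusters, stood at 136, 112, 77.2 and 55.9 CPM in iXEN cells in XEN medium and at 130.4, 96.2, 83.1 and 109 CPM in iXEN cells in ESC medium. XEN cells had 110.5, 121 and 106 CPM in XEN medium and 59.3, 109.7 and 54.9 CPM in ESC medium, against 90.8, 90.8 and 79.8 CPM in MEF. XEN cells in XEN medium lay above MEF, and the other groups overlapped MEF. Its log2 fold changes of 0.20, 0.30, 0.42 and -0.17 were not called in any comparison, with adjusted p of 0.639, 0.236, 0.0584 and 0.709. Ndufs5 had 0 counts throughout. In the reference transcripts 35.6% of its runs of 50 bases are also found in other genes, which is only a part of the transcript. The 0 is therefore not read as absence of the transcript, and its source was not tested.

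In complex II, which is also an enzyme of the citrate cycle and has no mitochondrially encoded subunit, Sdhd alone was called. Sdha, the flavoprotein that oxidises succinate, stood at 119, 144, 161 and 153 CPM in iXEN cells in XEN medium and at 223, 196, 190.4 and 213 CPM in iXEN cells in ESC medium. XEN cells had 209, 219.6 and 262 CPM in XEN medium and 138, 224 and 204 CPM in ESC medium, against 249.6, 261 and 220.2 CPM in MEF. All 4 iXEN libraries in XEN medium lay below the 3 MEF libraries, whereas the other groups overlapped MEF. The log2 fold change was -0.67 (SE 0.22, adjusted p = 0.0537) in iXEN cells in XEN medium and -0.21 (SE 0.16, adjusted p = 0.314) in iXEN cells in ESC medium. In XEN cells it was -0.03 (SE 0.18, adjusted p = 0.896) in XEN medium and -0.30 (SE 0.27, adjusted p = 0.421) in ESC medium, with no call. The iron-sulfur subunit Sdhb had 0.32, -0.39, -0.11 and 0.16 and the membrane anchor Sdhc had 0.19, -0.22, 0.31 and 0.29 in the same order, with no call. Sdhd, the other membrane anchor, stood at 172, 121, 222 and 135 CPM in iXEN cells in XEN medium and at 165, 168, 152 and 178 CPM in iXEN cells in ESC medium. XEN cells had 221, 279 and 139.9 CPM in XEN medium and 145, 192 and 156 CPM in ESC medium, against 104, 113 and 99.3 CPM in MEF. All XEN and iXEN libraries were above MEF. It rose in iXEN cells in ESC medium by 0.69 (SE 0.15, adjusted p = 0.00608) and in XEN cells in XEN medium by 1.06 (SE 0.28, adjusted p = 0.0213), and its values of 0.70 and 0.70 in the other 2 comparisons had adjusted p of 0.0696 and 0.0582.

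In complex III the catalytic iron-sulfur protein and the small subunit Uqcrq rose in all 4 groups, and of the 2 large core proteins Uqcrc1 was called in 1 comparison and Uqcrc2 in none. Of 8 genes tested, 5 rose in iXEN cells in XEN medium, 4 in iXEN cells in ESC medium, 6 in XEN cells in XEN medium and 3 in XEN cells in ESC medium, with medians of 1.72, 0.60, 1.28 and 1.74. The shares were 62.5%, 50%, 75% and 37.5%, beside 17.7%, 20.8%, 23.0% and 11.4% of all genes called higher. Uqcrfs1, the Rieske iron-sulfur protein that hands electrons toward cytochrome c, stood at 154, 123, 204 and 129 CPM in iXEN cells in XEN medium and at 54.9, 68.9, 60.2 and 60.6 CPM in iXEN cells in ESC medium. XEN cells had 164, 189.9 and 137 CPM in XEN medium and 110.2, 147 and 246 CPM in ESC medium, against 32.1, 41.5 and 51.9 CPM in MEF. iXEN libraries in ESC medium were the closest to MEF, and library 1 among them was only just above the highest MEF value. Its log2 fold change was 1.94 (SE 0.28, adjusted p = 0.00387) in iXEN cells in XEN medium and 0.58 (SE 0.20, adjusted p = 0.0453) in iXEN cells in ESC medium. In XEN cells it was 2.02 (SE 0.24, adjusted p = 0.00169) in XEN medium and 2.07 (SE 0.39, adjusted p = 0.0151) in ESC medium. Uqcrq, a small subunit near the ubiquinone site, rose in all 4 groups by 2.15, 1.28, 1.87 and 2.58. Uqcr10, another small subunit, had 2.29, 0.95, 2.03 and 2.61, of which the last was not called (adjusted p = 0.0621).

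Uqcrc1, a core protein and the complex III gene with the most counts, stood at 234, 146, 304 and 313 CPM in iXEN cells in XEN medium and at 179, 194, 308 and 189.7 CPM in iXEN cells in ESC medium. XEN cells had 205, 289 and 191 CPM in XEN medium and 311, 281 and 336 CPM in ESC medium, against 151, 186 and 153 CPM in MEF. XEN cells lay above MEF in both media, and iXEN cells overlapped MEF in both. It rose in XEN cells in ESC medium by 0.99 (SE 0.24, adjusted p = 0.0300), and its values of 0.69, 0.45 and 0.53 in the other 3 were not called. Uqcrc2, the second core protein, had 0.17, 0.18, 0.59 and 0.08 with no call. Cyc1, the cytochrome c1 that completes the catalytic part of complex III but does not carry the prefix, rose in all 4 groups by 1.79, 0.83, 1.46 and 1.78.

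In complex IV 16 genes were tested in each comparison. Of these, 10 rose in iXEN cells in XEN medium, 4 in iXEN cells in ESC medium, 13 in XEN cells in XEN medium and 7 in XEN cells in ESC medium, with medians of 1.87, 0.56, 1.39 and 1.51. The shares were 62.5%, 25%, 81.25% and 43.75%, beside 17.7%, 20.8%, 23.0% and 11.4% of all genes called higher. In iXEN cells in ESC medium the share was thus near that of all genes. The 2 members called lower were both restricted forms, described below. Cox5a, a subunit on the matrix side, stood at 268, 168, 436 and 325 CPM in iXEN cells in XEN medium and at 51.3, 79.5, 94.7 and 55.5 CPM in iXEN cells in ESC medium. XEN cells had 183, 313 and 92.0 CPM in XEN medium and 228, 156 and 269 CPM in ESC medium, against 25.3, 55.7 and 60.7 CPM in MEF. iXEN cells in ESC medium overlapped MEF, while every library of the other 3 groups was above MEF. The log2 fold change was 2.74 (SE 0.46, adjusted p = 0.00579) in iXEN cells in XEN medium and 0.61 (SE 0.35, adjusted p = 0.192) in iXEN cells in ESC medium. In XEN cells it was 2.10 (SE 0.54, adjusted p = 0.0213) in XEN medium and 2.27 (SE 0.43, adjusted p = 0.0153) in ESC medium. The zinc-binding subunit Cox5b had 2.50, 0.51, 1.97 and 2.24 and the small transmembrane subunit Cox8a had 2.81, 0.83, 2.04 and 2.37, called in all but iXEN cells in ESC medium. Cox4i1, the largest nuclear subunit, stood at 310.4, 454, 1446 and 1103 CPM in iXEN cells in XEN medium and at 307, 413, 685 and 491 CPM in iXEN cells in ESC medium. XEN cells had 518, 511 and 384 CPM in XEN medium and 743, 487 and 1037 CPM in ESC medium, against 314, 335 and 298 CPM in MEF. Every XEN library lay above MEF, and iXEN libraries overlapped MEF in both media. It rose in XEN cells in XEN medium by 0.63 (SE 0.19, adjusted p = 0.0386) and in XEN cells in ESC medium by 1.33 (SE 0.36, adjusted p = 0.0408), and the values in iXEN cells were 1.49 (SE 0.57, adjusted p = 0.0799) in XEN medium and 0.62 (SE 0.28, adjusted p = 0.0971) in ESC medium.

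Several complex IV genes come in pairs, with a widespread form and one known from particular tissues. Cox7a1, known from heart and skeletal muscle, stood at 3.08, 1.89, 8.30 and 6.49 CPM in iXEN cells in XEN medium and at 1.43, 3.07, 1.84 and 4.93 CPM in iXEN cells in ESC medium. XEN cells had 7.52, 3.71 and 2.79 CPM in XEN medium and 3.21, 3.22 and 7.04 CPM in ESC medium, against 0.426, 0.602 and 0.353 CPM in MEF. All 14 XEN and iXEN libraries lay above the 3 MEF libraries, from 1.43 to 8.30 CPM, and the log2 fold change was 3.50 (SE 0.70, adjusted p = 0.0104) in iXEN cells in XEN medium and 2.64 (SE 0.55, adjusted p = 0.00456) in iXEN cells in ESC medium. In XEN cells it was 3.38 (SE 0.55, adjusted p = 0.00432) in XEN medium and 3.35 (SE 0.57, adjusted p = 0.0125) in ESC medium. Its widespread partner Cox7a2 rose too, by 2.54, 0.86, 2.05 and 2.17. Per length of transcript, Cox7a1 made up 2.77 ± 0.763%, 4.64 ± 2.05%, 3.70 ± 2.05% and 3.77 ± 1.5% of the pair in these groups against 1.45 ± 0.234% in MEF (SD, n = 4, 4, 3, 3 and 3). The summed CPM of 10 striated muscle markers was 15.1 to 35.6 CPM in iXEN cells in XEN medium, 29.7 to 70.2 CPM in iXEN cells in ESC medium, 21.4 to 66.2 CPM (XEN medium) and 14.8 to 143 CPM (ESC medium) in XEN cells, against 6.23 to 10.4 CPM in MEF. Of these markers, 5 to 7 passed the filter in each comparison and 2 or 3 were called higher. Their part in the Cox7a1 values was not tested.

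**Figure D3:**
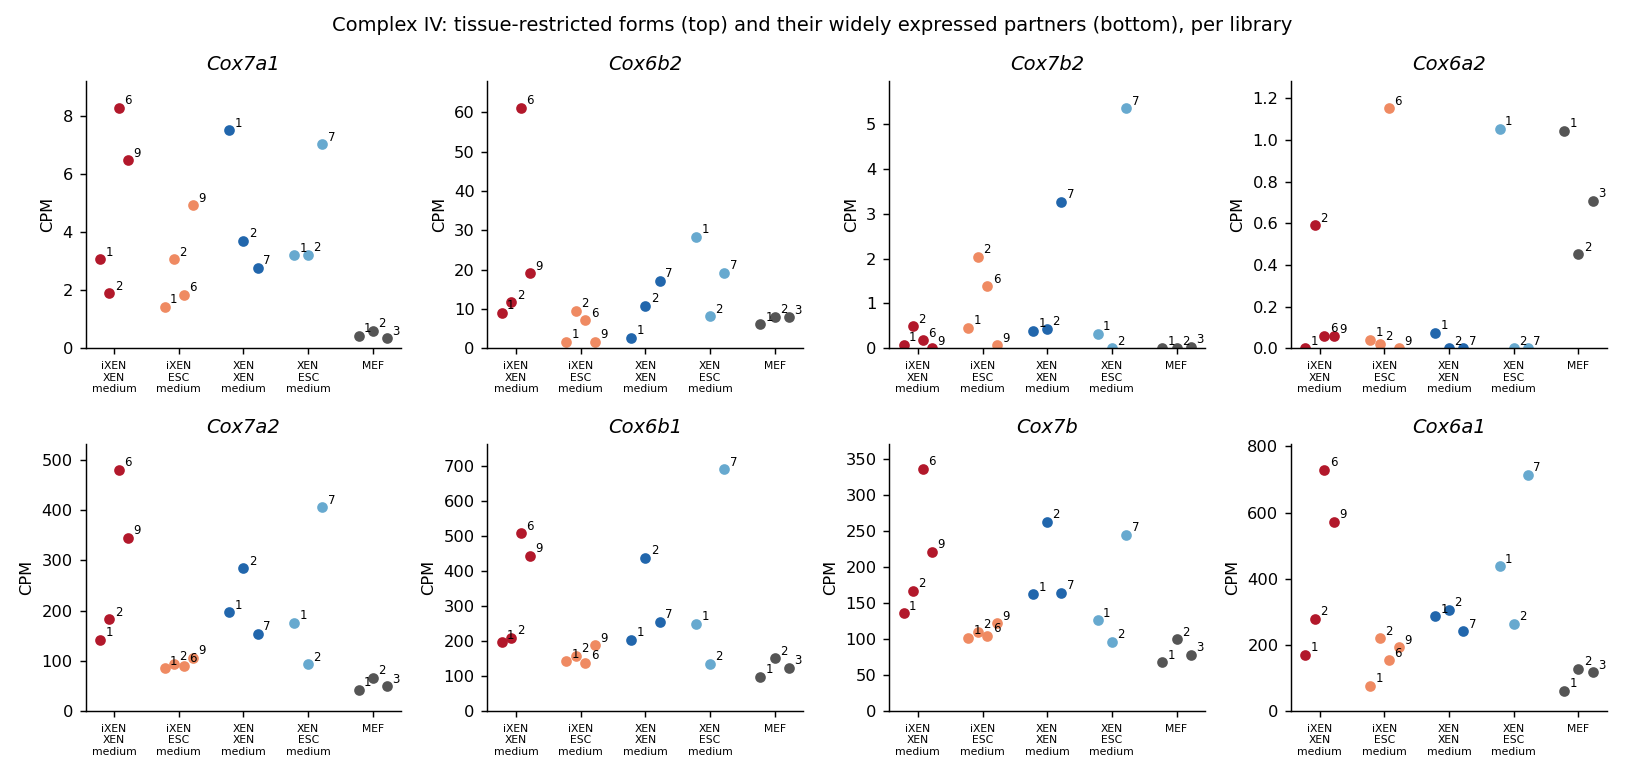
CPM of 4 tissue-restricted forms of complex IV (top) and of their widely expressed partners (bottom), 1 point per library with its label number, in the 5 groups; the vertical axes start at 0 and differ between panels. Every XEN and iXEN library has 1.43 to 8.30 CPM of Cox7a1, above the 0.353 to 0.602 CPM of the MEF libraries.

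Cox7b2, a relative of Cox7b known from testis, was close to absent in MEF. It had 28 counts over the 4 iXEN libraries in XEN medium, 131 over the 4 iXEN libraries in ESC medium, 198 over the 3 XEN libraries in XEN medium and 212 over the 3 XEN libraries in ESC medium, against 1 over the 3 MEF libraries. The ratio of counts per gene count was 17.8 (95% counting interval 2.94 to 727), 96.8 (17.1 to 3853), 140 (24.9 to 5572) and 215 (38.1 to 8514). The values were uneven within groups, with 205 of the 212 counts in XEN library 7 in ESC medium and 166 of the 198 in XEN library 7 in XEN medium. The gene was called higher in iXEN cells in ESC medium (adjusted p = 0.00947) and in XEN cells in XEN medium (adjusted p = 0.0129), and did not pass the filter in the other 2 comparisons.

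Cox6a2, the heart and skeletal muscle form of Cox6a, stood at 0, 0.591, 0.0602 and 0.0579 CPM in iXEN cells in XEN medium and at 0.0420, 0.0232, 1.15 and 0 CPM in iXEN cells in ESC medium. XEN cells had 0.0735, 0 and 0 CPM in XEN medium and 1.05, 0 and 0 CPM in ESC medium, against 1.04, 0.452 and 0.707 CPM in MEF. The groups other than XEN cells in XEN medium overlapped MEF. In XEN cells in XEN medium it had 3 counts against 63 in MEF, a ratio of 0.0338 (95% counting interval 0.00678 to 0.103), and was called lower (adjusted p = 0.0140). Ndufa4l2, a relative of Ndufa4 that hypoxia is known to induce, stood at 0, 0.344, 0.120 and 0.0579 CPM in iXEN cells in XEN medium and at 0.210, 0.116, 0.507 and 0 CPM in iXEN cells in ESC medium. XEN cells had 0.833, 0.0275 and 0 CPM in XEN medium and 0.138, 0.134 and 0.0522 CPM in ESC medium, against 0.968, 0.452 and 0.736 CPM in MEF. It fell in XEN cells in ESC medium, at -2.68 (SE 0.62, adjusted p = 0.0268), and had -2.27, -1.81 and -1.28 in iXEN cells in XEN medium, iXEN cells in ESC medium and XEN cells in XEN medium, none called. Cox6b2, a testis form, had 1.85, -0.52, 0.52 and 1.39 with no call and made up 1.02% to 11.9% of its pair with Cox6b1 over the 17 libraries. Cox4i2 stayed at or under 0.218%, Cox8b at or under 0.0934% and Ndufa4l2 at or under 0.485% of their pairs.

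In the ATP synthase the F1 part, which is the catalytic head with its central stalk, has 5 genes here (Atp5a1, Atp5b, Atp5c1, Atp5d and Atp5e). Of these, 4 rose in iXEN cells in XEN medium, 1 in iXEN cells in ESC medium, 3 in XEN cells in XEN medium and 2 in XEN cells in ESC medium. In ESC medium the genes called were Atp5e in iXEN cells and Atp5d and Atp5e in XEN cells. Atp5a1 and Atp5b, the α and β genes of the head itself, were called in neither. The genes of the outer stalk and membrane part other than the c ring gave 5, 4, 7 and 2 of 7. Of the 3 genes Atp5g1, Atp5g2 and Atp5g3, which encode the same mature c subunit of the rotor ring, 0, 0, 2 and 2 rose. The medians over all 15 genes were 1.31, 0.48, 0.91 and 1.53. Of the 15 genes, 60%, 33.3%, 80% and 40% were called higher, beside 17.7%, 20.8%, 23.0% and 11.4% of all genes. With the length trend described below removed, 1, 4, 3 and 3 of the 15 were called higher. The shares of all genes were then 17.9%, 24.4%, 23.1% and 14.4%, and in XEN medium neither count was above that share. For the 5 F1 genes alone the share in iXEN cells in ESC medium, without that step, was 20%, near that of all genes.

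Atp5e, the small ε subunit of the central stalk, stood at 70.0, 133, 411 and 493 CPM in iXEN cells in XEN medium and at 60.6, 81.2, 104 and 97.1 CPM in iXEN cells in ESC medium. XEN cells had 126, 154 and 112 CPM in XEN medium and 185, 74.5 and 561 CPM in ESC medium, against 40.5, 55.7 and 51.8 CPM in MEF. Every XEN and iXEN library was above MEF. Its log2 fold change was 2.59 (SE 0.72, adjusted p = 0.0305) in iXEN cells in XEN medium and 0.83 (SE 0.23, adjusted p = 0.0185) in iXEN cells in ESC medium. In XEN cells it was 1.45 (SE 0.21, adjusted p = 0.00303) in XEN medium and 2.55 (SE 0.74, adjusted p = 0.0491) in ESC medium. Atp5h, the d subunit of the outer stalk, whose promoter is printed above, rose by 1.64, 0.76, 1.49 and 1.81. In the reference transcripts Atp5h shares 50.5% of its runs of 50 bases with other genes, so its counts may miss reads. Atp5k, the e subunit of the membrane part that takes part in dimer formation, rose in XEN medium by 2.59 in iXEN cells and 1.73 in XEN cells, and had 0.42 and 2.17 in ESC medium with no call.

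Atp5b, the catalytic β subunit and the member with the most counts, stood at 2227, 1108, 2384 and 1554 CPM in iXEN cells in XEN medium and at 1137, 1338, 1839 and 1184 CPM in iXEN cells in ESC medium. XEN cells had 1306, 2133 and 1431 CPM in XEN medium and 1578, 1540 and 1564 CPM in ESC medium, against 784, 1099 and 778 CPM in MEF. The lowest iXEN library in XEN medium was just above the highest MEF library, and the other groups were also above MEF. It rose in iXEN cells in XEN medium by 1.10 (SE 0.36, adjusted p = 0.0495) and in XEN cells in XEN medium by 0.92 (SE 0.30, adjusted p = 0.0441), and had 0.67 (SE 0.25, adjusted p = 0.0603) and 0.88 (SE 0.31, adjusted p = 0.0831) in iXEN and XEN cells in ESC medium. Atp5a1, the α subunit that pairs with β in the head, had 0.32, 0.37, 0.32 and 0.34 and was called in none. The 3 genes that are not subunits were called in no comparison. Cox7a2l, which joins complexes III and IV into supercomplexes, had 0.72, -0.05, -0.05 and 0.46, Atp5s had 0.75, 0.04, 0.47 and 0.56 and Atp5sl had 0.65, 0.45, 0.26 and 0.80, in the same order of groups.

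Between iXEN and XEN cells, and between the media, no member was called. In these comparisons 0 of 79 members passed the adjusted threshold and so did 0% of all genes tested. In ESC medium iXEN cells had the lower values. Of the 79 members, 41 had an unadjusted edgeR p under 0.05, all lower in iXEN cells, beside 13.7% of all 12944 genes, and the median log2 fold change was -0.99. DESeq2 called 5 lower (Atp5d, Cox5a, Cox6a1, Ndufab1 and Uqcrfs1), beside 3.04% of all genes. Uqcrfs1 had -1.49 (SE 0.31, adjusted p = 0.213) and Cox5a had -1.67 (SE 0.32, adjusted p = 0.190) in the edgeR fit. Without XEN library 7 in ESC medium the median was -0.35, and without XEN library 1 or 2, which hold fibroblast transcripts, it was -1.10 or -1.28. In XEN medium the median of iXEN against XEN cells was 0.30, 1 of 79 members had an unadjusted p under 0.05 beside 4.10% of all genes, and DESeq2 called 0 members beside 0.565% of all genes. This median was 0.17 without iXEN library 6, 0.21 without iXEN library 9, 0.44 without iXEN library 2, 0.47 without iXEN library 1 and 0.45 without XEN library 2, and 0.030 with the length trend described below removed. Without iXEN libraries 2 and 9 together the median was 0.33.

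In iXEN cells most members had higher values in XEN medium, though none was called. iXEN cells in XEN medium against iXEN cells in ESC medium had a median of 0.95, with 46 members higher and 1 lower at an unadjusted edgeR p under 0.05 beside 23.4% of all genes. The smallest adjusted p among the members, 0.0581 in the edgeR fit, was shared by Cox5a, Ndufab1, Ndufb4 and Uqcrfs1, and Ndufab1 had a log2 fold change of 2.65 (SE 0.40). DESeq2 called 29 higher, beside 11.9% of all genes. Cox5a, whose values are given above, had 2.11 (95% interval 1.33 to 2.90), Uqcrfs1 had 1.34 (95% interval 0.81 to 1.87), Ndufb4 had 1.33 (95% interval 0.76 to 1.89) and Cox6b2 had 2.35 (95% interval 0.58 to 4.13), whereas Sdha had -0.49 (95% interval -0.96 to -0.01). By complex the medians were 0.96 for complex I, 0.18 for complex II, 0.99 for complex III, 1.42 for complex IV and 0.82 for the ATP synthase. Leaving out 1 library gave 0 to 6 members called, with 5 without iXEN library 6 in ESC medium and 6 without iXEN library 2 in XEN medium, and medians of 0.71 to 1.10. Without iXEN libraries 2 and 9 in XEN medium together, 0 members were called and the median was 0.95. Members with transcripts of 700 bases or less had a median of 1.146 between the media. Other genes of that length had 1.165, so short genes in general were higher by as much.

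XEN cells in XEN medium against XEN cells in ESC medium had a median of -0.30 over 79 members, none with an unadjusted p under 0.05 beside 5.63% of all genes, and DESeq2 called 0 beside 0.476%. Its sign rested on 1 library, since the median was 0.20 without XEN library 7 in ESC medium and -0.60 to -0.23 in the other omissions. The difference between the 2 medium effects was tested as an interaction over the 4 groups. No member of 82 was called, the smallest adjusted p was 0.221, and the median was 1.27. At an unadjusted p under 0.05 there were 39 members, beside 14.8% of all genes, and DESeq2 called 6 (Atp5d, Cox5a, Ndufa8, Ndufab1, Ndufb5 and Uqcrfs1), beside 3.25%. The median of the interaction was 0.75 without XEN library 7 in ESC medium and 1.12 to 1.52 in the other omissions, and 0.23 with the length trend removed.

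The libraries within a group differed for these genes as a block. In XEN cells in ESC medium, library 7 lay 0.77 above the group mean on the log2 CPM scale (median over 82 members) and library 2 lay at -0.68. In iXEN cells in XEN medium, libraries 6 and 9 lay at 0.60 and 0.43 and libraries 1 and 2 at -0.61 and -0.48. In the other groups the values ran from -0.25 to 0.27. The SD of a member within a group was 0.67 in iXEN cells in XEN medium, 0.31 in iXEN cells in ESC medium, 0.29 in XEN cells in XEN medium and 0.76 in XEN cells in ESC medium, against 0.23 in MEF (medians over 82 members), and the medians over all genes were 0.67, 0.48, 0.47 and 0.71, against 0.20 in MEF.

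Short transcripts of other genes also had higher values than in MEF, other than in iXEN cells in ESC medium, where 21.4% of them were called higher and 19.1% lower. Most of the members are short, with 33 of the 81 tested in iXEN cells in ESC medium at 700 bases or less and 25 longer but at most 1200 bases in the GENCODE transcripts of GRCm38. Among other genes of 700 bases or less, the median log2 fold change against MEF was 1.39 in iXEN cells in XEN medium, 0.14 in iXEN cells in ESC medium, 0.79 in XEN cells in XEN medium and 1.17 in XEN cells in ESC medium. The members of that length had 1.87, 0.61, 1.31 and 1.62. Among other genes over 2500 bases the medians were -0.28, -0.02, -0.21 and -0.33. For the interaction of cell type and medium, members of 700 bases or less had a median of 1.525 and other genes of that length 1.494. By library, other genes of 700 bases or less were furthest above the MEF mean in XEN library 7 in ESC medium (1.74) and in iXEN libraries 6 and 9 in XEN medium (1.56 and 1.55), the same libraries in which the members were highest.

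**Figure D4:**
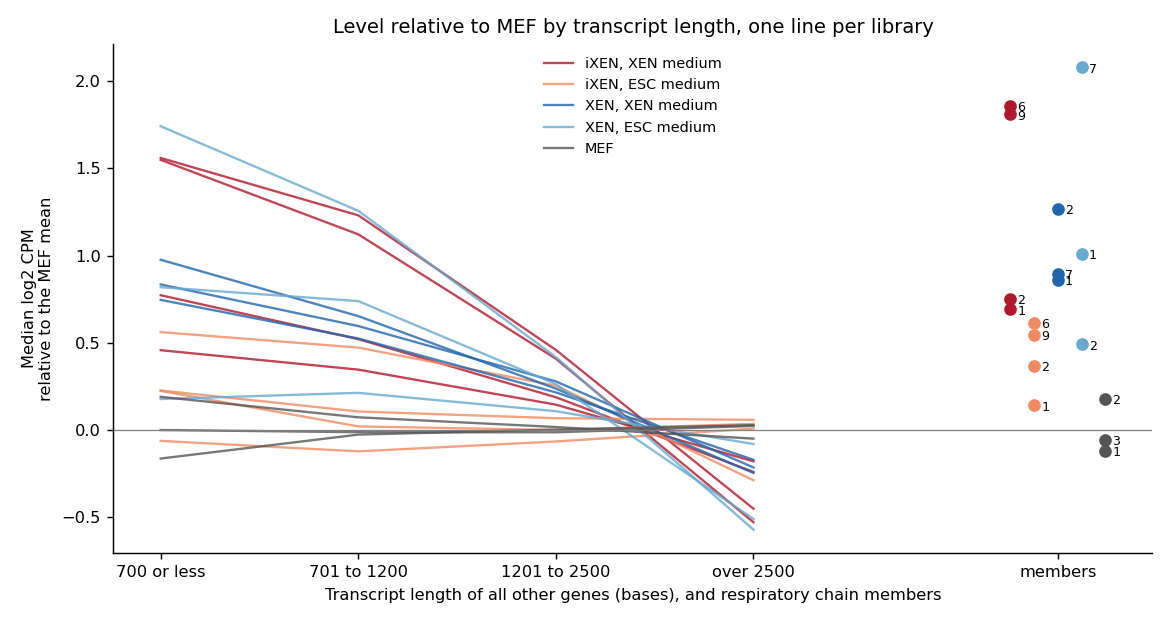
Median log2 CPM relative to the MEF mean in 4 classes of transcript length (in bases) for all other genes, 1 line per library coloured by group, and the same median over the respiratory chain members at the right, 1 point per library with its label number. XEN library 7 in ESC medium and iXEN libraries 6 and 9 in XEN medium are the highest in the shortest class (1.74, 1.56 and 1.55) and for the members (2.08, 1.86 and 1.81).

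With the trend against length taken out of each library, an alternative chosen after seeing the data, 20 members were called higher and 0 lower in iXEN cells in XEN medium, beside 17.9% of all genes higher. In iXEN cells in ESC medium there were 19 higher and 0 lower, beside 24.4%. Each count is out of 81 members tested, so the share in iXEN cells in ESC medium was not above that of all genes. In XEN cells in XEN medium there were 27 higher and 2 lower, beside 23.1%, and in XEN cells in ESC medium 20 higher and 1 lower, beside 14.4%. By complex, in the same order of groups, complex I had 11, 8, 14 and 8 of 35 genes called higher. Complex III had 3, 3, 4 and 3 of 8 and complex IV 5, 3, 6 and 6 of 16. The ATP synthase had 1, 4, 3 and 3 of 15. The median over the members was then 0.48, 0.41, 0.47 and 0.48 in the 4 comparisons, against 0.15, 0.08, 0.09 and 0.13 over all genes. The median between the media in iXEN cells was then 0.11, and that of iXEN against XEN cells in ESC medium came to -0.13. Of the calls without this step, 20 of 49, 15 of 21, 28 of 63 and 20 of 30 were also made with it. Cox7a1 and Cox7a2 were called higher with it in all 4 comparisons. Ndufa1, Ndufb7, Ndufb8, Ndufb10, Uqcrfs1, Uqcrq, Atp5e and Atp5h, called in all 4 without it, each lost at least 1 call. In iXEN cells in XEN medium Ndufa1 came to 0.40 (adjusted p = 0.169) and Atp5h to 0.44 (adjusted p = 0.165). Atp5e came to 0.86 there (adjusted p = 0.0747). Atp5k, at 0.84 in iXEN and 0.71 in XEN cells in XEN medium, was no longer called.

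Genes around the respiratory chain were counted from lists written from general knowledge. Of 45 tested assembly factors, which build the complexes without being part of them, 17 rose in iXEN cells in XEN medium, 8 in iXEN cells in ESC medium, 27 in XEN cells in XEN medium and 8 in XEN cells in ESC medium, and none fell, with medians of 0.84, 0.28, 0.81 and 0.78. Beside the 17.7%, 20.8%, 23.0% and 11.4% of all genes called higher, the share of the factors in iXEN cells in ESC medium, 17.8%, was not above that of all genes. Cox17, the copper chaperone of complex IV, rose in all 4 groups by 3.32, 1.97, 3.01 and 3.94, and Cox11, which places copper in its catalytic part, by 2.19, 0.81, 2.35 and 1.58. Of 13 genes of cytochrome c and ubiquinone synthesis, 5, 4, 5 and 5 rose. They include cytochrome c itself, Cycs, at 2.28, 1.35, 2.17 and 1.86, and the ubiquinone hydroxylase Coq7, at 1.71, 1.11, 1.53 and 1.78. Of 16 citrate cycle genes, 4, 3, 6 and 2 rose, which in ESC medium is near the share of all genes called higher in both cell types. Among them were the pyruvate dehydrogenase β subunit Pdhb, at 1.17, 1.08, 1.31 and 1.45, and the succinyl-CoA ligase subunit Suclg1, at 1.36, 0.68, 1.14 and 1.19. Pdha1, the α subunit of pyruvate dehydrogenase, fell in iXEN cells in XEN medium, at -0.85 (SE 0.26, adjusted p = 0.0413).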

How the data were processed

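RNA from the 17 CD-1 mouse samples was extracted with Trizol and prepared with the Illumina TruSeq mRNA kit, per the labels' protocols. The deposited files hold raw counts per gene, whole numbers for which the submitters' processing notes name HTSeq 0.6.1, TopHat2 2.0.12, Trimmomatic 0.32, FastQC 0.11.3 and build mm9. The sources used here give no annotation, parameters or strand setting, and genes with overlapping partners (Ndufb6, Ndufa13, Cox5a and Uqcrc2) are therefore uncertain. Reads without a unique position made up 13.7% to 24.6% of a file, and the counter's own lines (20.8% to 33.1%) were left out.

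Each comparison was fitted with edgeR 4.0.16 in R 4.3.3 on the groups compared only, with filterByExpr (minimum count 10, minimum total 15), TMM scaling, the two-sided quasi-likelihood test and Benjamini-Hochberg adjustment over all genes at 0.05. CPM use TMM factors over all 17 libraries, log2 CPM a prior count of 2, and an SE is the log2 fold change over the square root of F. Alternatives were DESeq2 1.42.0, RLE and library size scaling, no filter, a fit over all libraries, a replicate block, single omissions and, added after seeing the data, removal of a length trend (loess, span 0.3) and omission of iXEN libraries 2 and 9 in XEN medium. Lengths are from GENCODE transcripts of GRCm38. The members, the gene lists and the lists within complexes were chosen with earlier results of these data known. The genes named are the restricted forms and their partners, the Sdh genes, the 6 called members of largest change per direction and comparison, the gene of most counts per complex, up to 3 called genes per list and direction, and the members that are not subunits. Not every list gene that met this rule is named, and Egln3 and Car9 of the hypoxia list are among those left out. Ndufs1, Uqcrc2, Uqcrfs1, Atp5a1, Atp5h, Ndufb4 and Ndufb10 were added after their values were seen. Cox5b and Uqcr10 also fall outside these rules.

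Nothing says that libraries came from separate cultures or derivations, so p-values measure only the spread between these samples. No 2 libraries of a group agreed within sampling noise (chi-square per degree of freedom at least 43.4). Same-numbered XEN libraries deviated together between the media (correlations 0.26, 0.39 and 0.66), and iXEN libraries did so less (0.21, 0.24, 0.14 and -0.06). The main fits, the XEN medium comparison and the interaction among them, did not pair libraries. Pairing entered only as the replicate block. With it the median between the media was -0.15 in XEN cells and 0.85 in iXEN cells, with 0 members called in each. Counting intervals and the floor of 3 counts cover counting error only.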

Additional observations from a re-analysis of the deposited data

Results flagged for a closer look

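In each group of 4 libraries, the gap between an extreme library and its nearest neighbour was set against the range of the group. Of 176 such groups, 9 exceeded Dixon's 95% critical value for 4 samples, where chance gives about 1 in 20. The number flagged is near that share, and the groups overlap, since the sums by complex hold the same genes. The flagged values are therefore listed only. In iXEN cells in ESC medium library 6 stood apart at the high end for 6 genes. It had 95.4 CPM of Ndufa10, 73.1 CPM of Ndufs8, 142.5 CPM of Ndufv1 and 125 CPM of Ndufv2, which are complex I genes, 308.5 CPM of Uqcrc1 and 1.15 CPM of Cox6a2. In iXEN cells in XEN medium Cox6a2 stood at 0.591 CPM in library 2 and Ndufb6, an accessory gene of complex I, at 148 CPM in library 6, both above the others. Sdhc stood at 74.8 CPM in library 1, below the others.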

How the results depend on the processing

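The number of members called moved by over 1.5 times under several settings. With the replicate block, against MEF, iXEN cells in XEN medium had 0 (49 without the block), iXEN cells in ESC medium 13 (21), and XEN cells in ESC medium 1 (30). The numbers are shared by 2 libraries a group there and are not shown to pair them. The block changed no other count by that much, and none between the media. The fit over all 17 libraries gave 3 for iXEN cells in ESC medium, 32 for XEN cells in XEN medium, 50 for XEN cells in ESC medium and 5 between the media in iXEN cells. DESeq2 gave 59 for XEN cells in ESC medium against MEF, 5 for iXEN against XEN cells in ESC medium, 29 between the media in iXEN cells and 6 for the interaction. Removing the length trend gave 20 for iXEN cells in XEN medium and 29 for XEN cells in XEN medium. Single omissions gave 8 to 63 for iXEN cells in XEN medium, 4 to 30 for iXEN cells in ESC medium, 36 to 67 for XEN cells in XEN medium, 0 to 69 for XEN cells in ESC medium and 0 to 6 between the media in iXEN cells. Scaling by library size alone moved the median of all genes from -0.04 to 0.09 between the media in XEN cells and from 0.07 to -0.09 for the interaction, where the members' medians were -0.16 and 1.07. The cause was not tested, except that omissions and the block leave fewer degrees of freedom.

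Some uncalled genes near 0 changed sign. Over single omissions Uqcrc2 ran from -0.061 (without iXEN library 1) to 0.29 in iXEN cells in XEN medium. In XEN cells in ESC medium Ndufs1 ran from -0.40 to 0.078 (without XEN library 7) and Sdhb from -0.029 (without XEN library 1) to 0.62. In XEN cells in XEN medium Cox6b2 ran from -0.073 (without XEN library 7) to 0.99 and Sdha from -0.13 to 0.050, above 0 without MEF library 2 (0.024), XEN library 1 and XEN library 2 (0.016). With the replicate block, Sdhb came to -0.15 in iXEN cells in XEN medium and -0.28 in XEN cells in ESC medium, and Cox6b2 to -0.34 in XEN cells in XEN medium. With the length trend removed, Sdhb came to -0.37 in iXEN cells in XEN medium, Cox4i1 to -0.047, Cox6b2 to -0.31 and Sdha to 0.011 in XEN cells in XEN medium, and Sdhb to -0.51 and Uqcrc2 to -0.034 in XEN cells in ESC medium. Cox4i1 was called higher there without this step.

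Of 2363 values of named genes under all settings, 1927 kept their direction and their side of the threshold, 362 lost a call, 58 gained one and 16 changed sign. Of 135 sums by complex, all 135 moved by less than the SD of their group. Most of these are single omissions, which cannot move a group mean that far. Only the changes of scaling could have failed here.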

Other observations

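Of 15 tested regulators of mitochondrial biogenesis, 2 rose and 1 fell in iXEN cells in XEN medium, 5 rose and 0 fell in iXEN cells in ESC medium, 6 rose and 2 fell in XEN cells in XEN medium, and 3 rose and 2 fell in XEN cells in ESC medium. Of all genes 32.6%, 46.7%, 47.5% and 25.0% were called in either direction, and the list as a whole is not read as a result. Tfam, which packages mitochondrial DNA, rose in all 4 groups, by 1.64, 1.03, 1.41 and 1.02 on the log2 scale. The coactivator Ppargc1a fell, at -4.92 in iXEN cells in XEN medium, -4.09 in XEN cells in XEN medium and -4.61 in XEN cells in ESC medium, and its value of -0.96 in iXEN cells in ESC medium was not called. Its relative Ppargc1b rose in ESC medium, at 2.90 (SE 0.38, adjusted p = 0.000415) in iXEN cells and 2.32 (SE 0.46, adjusted p = 0.0176) in XEN cells. The receptor Esrrg fell in XEN cells, at -4.12 (SE 0.88, adjusted p = 0.0110) in XEN medium and -3.49 (SE 0.88, adjusted p = 0.0338) in ESC medium.

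Of 12 targets of the hypoxia response, 2 rose and 1 fell in iXEN cells in XEN medium, 4 rose and 3 fell in iXEN cells in ESC medium, 3 rose and 1 fell in XEN cells in XEN medium, and 2 rose and 0 fell in XEN cells in ESC medium. Set against the same shares of all genes, this list is not read as a result either. Ankrd37 rose in all 4 groups, by 3.08, 2.12, 1.69 and 2.33. Ldha and Pdk1, which turn pyruvate away from the citrate cycle, fell in iXEN cells in ESC medium, at -1.13 (SE 0.34, adjusted p = 0.0244) and -1.22 (SE 0.43, adjusted p = 0.0464).

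Sequence shared with other genes was counted for the members in the reference transcripts. The median log2 fold change of iXEN cells in XEN medium against MEF was 1.49 for 35 members that share no run of 50 bases, 1.49 for 28 that share up to 20% and 1.31 for 18 that share more. In XEN cells in XEN medium these medians were 1.09, 1.01 and 0.98.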
